A study of Mus musculus with 10 samples.

Results

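The Schlafen genes are a family of growth regulators first described in developing T cells of the mouse. Their products share an N-terminal domain, and the family is divided by length into short forms (Slfn1 and Slfn2), intermediate forms (Slfn3 and Slfn4) and long forms (Slfn5, Slfn8 and Slfn9), the last with a helicase-like C-terminal part. Many members are induced by interferons, and they are studied mainly in T cells and in monocytes and macrophages, both of which bone marrow holds. Their expression was followed here in the femur of 5 freely ambulating control mice and of 5 mice whose hindlimb muscles had been unloaded by hind-limb suspension, in a head-down tilt, for 24 h. All 10 animals were male ICR mice aged 6 months, and the RNA came from the excised femur as a whole, with no step in the labels that removed marrow or attached tissue. The comparison asks which transcripts of the bone differ after 1 day without muscle loading.

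The members were chosen by gene name, as probes that the array or their accession assigns to Slfn1, Slfn2, Slfn3, Slfn4, Slfn5, Slfn8 or Slfn9. All 7 genes were found, of 19505 genes with a symbol on the array. They had 8 of 41174 gene probes, 2 of them for Slfn3 and 1 for each of the other 6 genes, each spotted a single time. All 8 were well above background on all 10 arrays, none was saturated, and all 8 were among the 38629 probes tested. The family itself was selected on earlier results of this same comparison, namely differences between unloaded and control femur, so its differences are given as a description and support nothing. Adjusted p-values are printed only to place a probe within the fit of all probes. Closely related members, such as the long forms Slfn8 and Slfn9, can share hybridisation signal, and the probe sequences were not used here, so a value belongs to the probe first and to its gene with that limit.

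The arrays lay on 3 slides, which largely followed the groups. Controls 1 to 4 were on slide 1, control 5 shared slide 2 with unloaded 1 to 3, and unloaded 4 and 5 were on slide 3. The array of unloaded animal 5 stood apart: its median correlation with the other arrays was 0.973, against 0.985 to 0.988 for the others, and 89.8% of its gene spots were well above background against 91.9% to 95.5%. The 75th percentile of the signal, by which each array was scaled, lay between 637 and 903 intensity units. With 5 arrays a group, precision is set by that number.

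RefSeq places the 7 genes in 1 run on chromosome 11, in the order Slfn5, Slfn9, Slfn8, Slfn2, Slfn1, Slfn4 and Slfn3, with the pseudogene Slfn10-ps between Slfn8 and Slfn2. A promoter window, from 250 bases before to 50 bases after a start, was in the RefSeq table (GRCm38.p6) for all 7. The core of the interferon-stimulated response element, GAAANNGAA on either strand, was found in 3 of the 7 genes, the long forms Slfn5, Slfn8 and Slfn9, and 9.76% of 27025 genes hold it in a window of this length. The core of the gamma-activated site, TTCNNNGAA, was found in none of the 7, and 9.55% of all genes hold it. No such match in Slfn1, Slfn2, Slfn3 or Slfn4 says only that these letters are not in this window.

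The 4 windows printed here are that of Slfn4, the member with the largest difference, and those of the 3 long forms that hold the interferon element core, whose letters are in capitals. They are written 5′ to 3′ on the strand of the gene: Slfn4 at chr11:83174936-83175235 on the plus strand, Slfn5 at chr11:82951852-82952151 on the plus strand, Slfn8 at chr11:83020761-83021060 on the minus strand and Slfn9 at chr11:82991781-82992080 on the minus strand.
Slfn4: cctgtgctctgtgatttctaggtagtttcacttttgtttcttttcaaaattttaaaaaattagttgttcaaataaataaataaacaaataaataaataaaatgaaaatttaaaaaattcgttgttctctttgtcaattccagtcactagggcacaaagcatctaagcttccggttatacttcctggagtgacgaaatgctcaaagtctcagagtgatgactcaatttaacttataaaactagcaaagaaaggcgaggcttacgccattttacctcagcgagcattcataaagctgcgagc
Slfn5: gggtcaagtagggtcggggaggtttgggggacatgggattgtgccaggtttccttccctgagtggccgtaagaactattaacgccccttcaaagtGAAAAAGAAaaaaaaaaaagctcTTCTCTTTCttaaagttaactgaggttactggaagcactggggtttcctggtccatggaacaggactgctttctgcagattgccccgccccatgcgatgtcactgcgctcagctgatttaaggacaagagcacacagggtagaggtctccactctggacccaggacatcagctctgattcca
Slfn8: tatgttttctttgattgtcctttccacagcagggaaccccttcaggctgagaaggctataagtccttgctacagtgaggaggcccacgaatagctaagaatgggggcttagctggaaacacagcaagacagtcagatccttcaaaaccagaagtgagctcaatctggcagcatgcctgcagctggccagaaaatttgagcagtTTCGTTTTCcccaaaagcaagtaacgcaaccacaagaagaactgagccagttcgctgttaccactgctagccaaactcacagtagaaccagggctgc
Slfn9: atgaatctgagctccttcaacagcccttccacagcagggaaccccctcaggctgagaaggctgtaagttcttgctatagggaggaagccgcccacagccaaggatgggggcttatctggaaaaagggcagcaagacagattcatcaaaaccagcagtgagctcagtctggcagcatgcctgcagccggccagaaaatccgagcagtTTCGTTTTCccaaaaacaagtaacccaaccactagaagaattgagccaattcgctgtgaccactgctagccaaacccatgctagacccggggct

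With the first transcribed base counted as 0, the core began at -155 and -132 in Slfn5, at -47 in Slfn8 and at -44 in Slfn9, and no match overlapped the other motif. In Slfn8 and Slfn9 the same letters, TTCGTTTTC, fill it, and their windows were identical at 80.7% of aligned positions, against 43.7% to 50.6% for the other 20 pairs of member windows. A further start of Slfn8, in a window overlapping the one shown, has the same core at -135. These windows describe sequence alone: the arrays measured RNA and no binding.

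Levels below are log2 signals after the array's own 75th percentile was subtracted, and differences are log2 values with control taken from unloaded. Slfn4 had the largest difference of the 7 genes. It is an intermediate form known from cells of the myeloid lineage, where interferon and microbial stimuli induce it in macrophages. Its level in controls 1 to 5 was -0.51, -0.24, 0.06, -0.39 and -0.76, and in unloaded animals 1 to 5 it was -1.16, -1.29, -1.42, -1.23 and -1.89. All 5 unloaded animals lay below all 5 controls, with unloaded 5 the lowest and control 3 the highest. In unscaled intensity units the controls read 609, 764, 899, 518 and 474 and the unloaded animals 348, 294, 238, 331 and 187, with the same separation.

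The mean of Slfn4 was -0.37 ± 0.31 (SD, n = 5) in control and -1.40 ± 0.29 (SD, n = 5) in unloaded femur. This is a difference of -1.03 (SE 0.16, 95% interval -1.38 to -0.68), or a level 2.04-fold lower (1.60 to 2.61). Among the 38629 probes tested it was the 9th lowest difference and the 6th smallest p, but it was not called (limma adjusted p = 0.143). The groups failed to overlap downwards in 1 of 8 family probes, where 1.65% of all probes were so separated and 3.16% were separated in either direction. Since the family was selected on this contrast, nothing is read from that share.

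The Slfn4 difference was smaller with slide as a fixed block. With slide as a random block it was -1.05 (SE 0.16, limma adjusted p = 0.0997). On slide 2 alone, the single control read -0.76 and the 3 unloaded animals -1.16, -1.29 and -1.42, so the order held there. The difference on that slide, and with slide as a fixed block, was -0.54 (SE 0.27, limma adjusted p = 1.00). Control 5 was the lowest of the controls, and whether slide or that animal sets the smaller value cannot be told apart with 1 control on the slide. Leaving out any 1 array kept the difference between -1.13 and -0.91, with limma adjusted p between 0.106 and 0.265; it was -0.91 without unloaded 5. With a mean-dependent and robust variance in limma, the same difference was called (adjusted p = 0.0382).

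**Figure D1:**
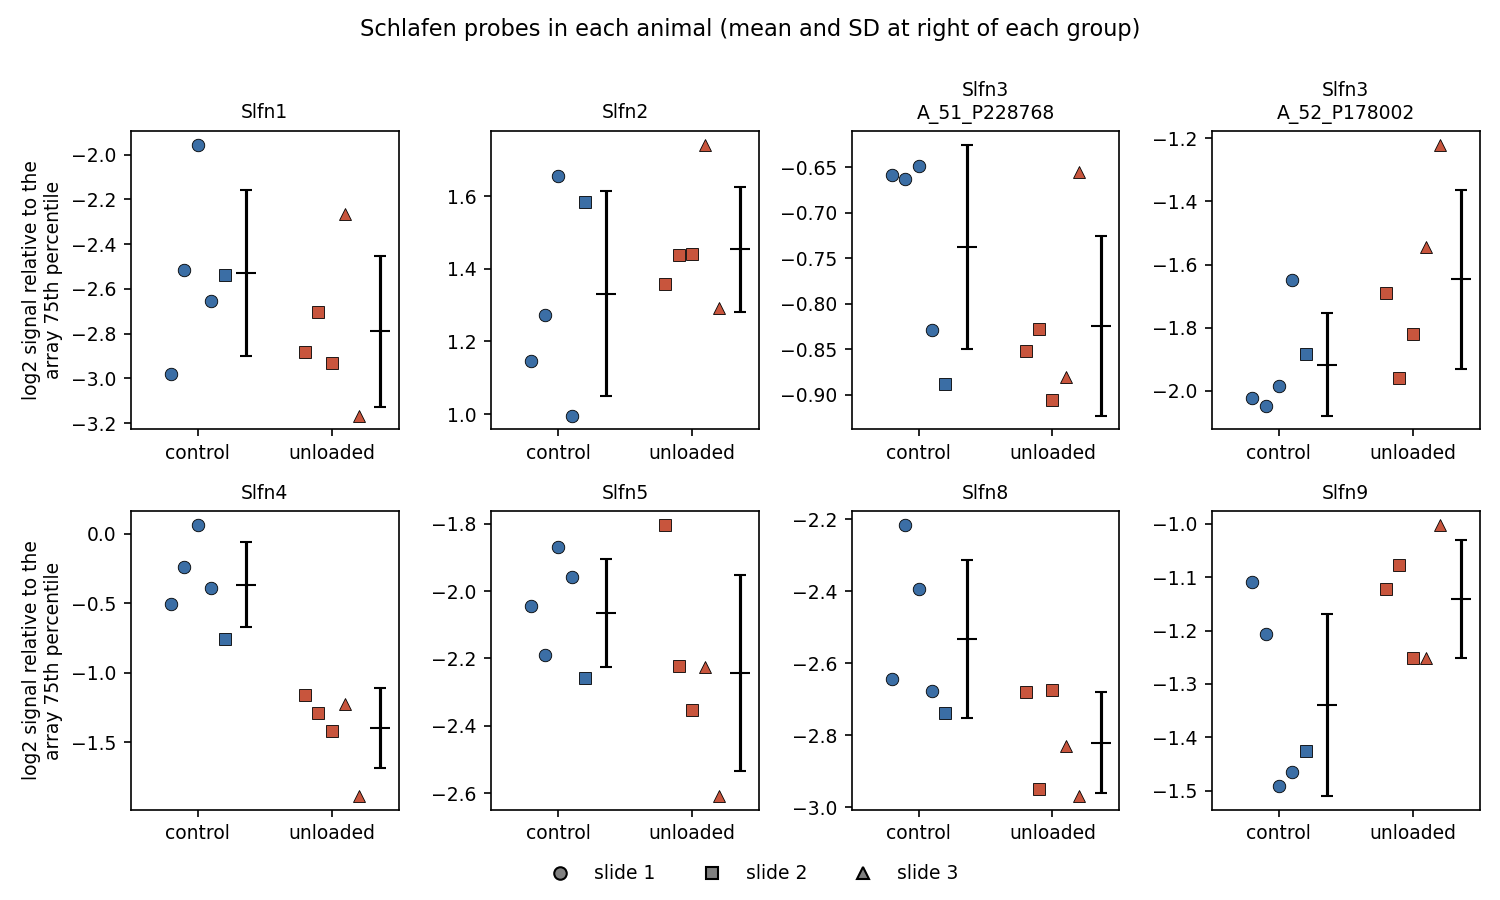
Log2 signal relative to the array's 75th percentile for the 8 Schlafen probes, 1 panel each with its own vertical scale, with a point per animal (blue control, red unloaded), marker shape for the slide, and the mean with its SD to the right of each group (n = 5). Only in the Slfn4 panel do the groups not overlap, the controls lying between -0.76 and 0.06 and the unloaded animals between -1.89 and -1.16.

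**Figure D2:**
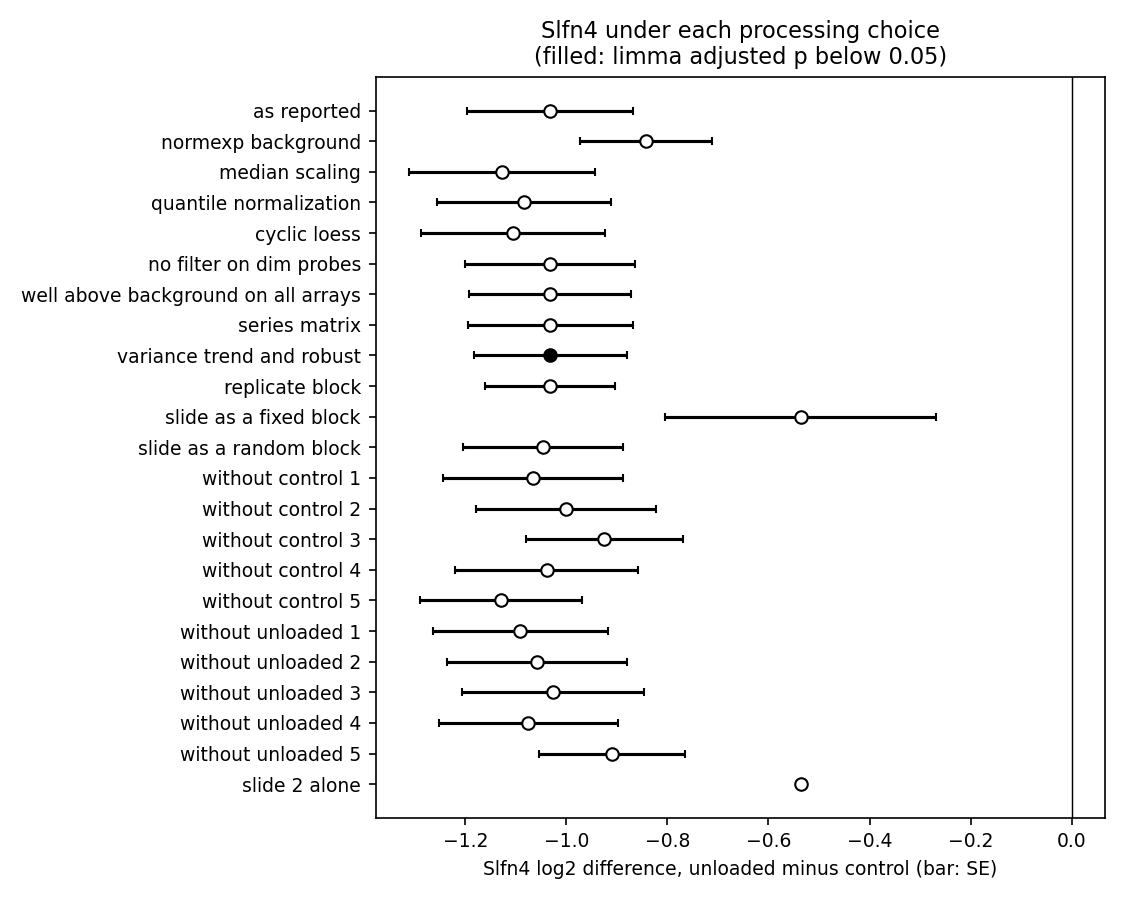
Log2 difference of Slfn4, unloaded minus control, as reported and under each processing choice, with its SE as a bar; a filled point has a limma adjusted p below 0.05, and the value of slide 2 alone has no SE. The values lie between -1.13 and -0.54. The value moves most, to -0.54, with slide as a fixed block and on slide 2 alone, both resting on 1 control. With slide as a random block it is -1.05.

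Slfn3, the other intermediate form, is known from regulatory T cells and from the lining of the gut, where it goes with differentiation. Its probes differed in direction. The probe for the RefSeq transcript (A_51_P228768) read -0.66, -0.66, -0.65, -0.83 and -0.89 in controls 1 to 5 and -0.85, -0.83, -0.91, -0.88 and -0.66 in unloaded animals 1 to 5. The ranges overlapped almost wholly, and the difference was -0.09 (SE 0.09, 95% interval -0.29 to 0.11), with -0.18 to -0.15 under other scalings and 0.026 within slide 2. The probe for a thymus cDNA that the array assigns to Slfn3 (A_52_P178002) read -2.02, -2.05, -1.99, -1.65 and -1.88 in the controls and -1.69, -1.96, -1.82, -1.54 and -1.22 in the unloaded animals, a difference of 0.27 (SE 0.14, 95% interval -0.02 to 0.56). Here 4 of 5 unloaded animals lay above the control mean and unloaded 5 was the highest. The difference was 0.16 without unloaded 5, 0.16 to 0.18 under other scalings, and 0.06 within slide 2. The deviations of both probes from their group means had a Pearson r of 0.15 (Spearman rho -0.07, exact permutation p = 0.685) over the 10 animals. Without the 2 animals farthest from the median of the RefSeq probe, r was -0.42. The 2 probes therefore did not give 1 common reading of Slfn3.

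Slfn1 and Slfn2, the short forms, are known for holding T cells in a resting state. Slfn1 read -2.98, -2.52, -1.95, -2.65 and -2.54 in controls 1 to 5 and -2.88, -2.70, -2.93, -2.26 and -3.17 in unloaded animals 1 to 5. The groups overlapped over most of their range, the highest animal being control 3 and the lowest unloaded 5, and the difference was -0.26 (SE 0.19, 95% interval -0.67 to 0.14). It was -0.12 without control 3, -0.17 without unloaded 5 and -0.39 without unloaded 4, and other scalings gave -0.37 to -0.36. Slfn2 read 1.15, 1.27, 1.65, 1.00 and 1.59 in the controls and 1.36, 1.44, 1.44, 1.74 and 1.29 in the unloaded animals. Its unloaded animals lay between the lower and the upper controls, apart from unloaded 4, which was the highest of all, and the difference was 0.12 (SE 0.14, 95% interval -0.17 to 0.42). Without control 4 it was 0.04, without unloaded 4 0.05, without control 1 0.08, without control 5 0.19 and without control 3 0.20, and other scalings gave 0.03 to 0.20. The sign turned within slide 2, at -0.17.

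The long forms showed small differences with unlike signs. Slfn8 read -2.64, -2.22, -2.39, -2.68 and -2.74 in controls 1 to 5 and -2.68, -2.95, -2.68, -2.83 and -2.97 in unloaded animals 1 to 5. All 5 unloaded animals lay below the control mean, but controls 4 and 5 lay within the range of the unloaded animals. The difference was -0.29 (SE 0.12, 95% interval -0.54 to -0.03, limma adjusted p = 0.283). Within slide 2 it was -0.03, and other scalings gave -0.40 to -0.38.

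Slfn9 read -1.11, -1.21, -1.49, -1.46 and -1.43 in the controls and -1.12, -1.08, -1.25, -1.25 and -1.002 in the unloaded animals, a difference of 0.20 (SE 0.10, 95% interval -0.02 to 0.42). All 5 unloaded animals lay above the control mean, while controls 1 and 2 lay among them. Within slide 2 the difference was 0.28, and other scalings gave 0.10 to 0.11. Slfn5, a nuclear long form that is known as an interferon-induced regulator, read -2.04, -2.19, -1.87, -1.96 and -2.26 in the controls and -1.80, -2.22, -2.35, -2.23 and -2.61 in the unloaded animals. Unloaded 1 was the highest and unloaded 5 the lowest of all 10, and the difference of -0.18 (SE 0.14, 95% interval -0.47 to 0.12) turned to 0.13 within slide 2. It was -0.09 without unloaded 5 and -0.29 without unloaded 1, and other scalings gave -0.30 to -0.27.

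Over the 8 probes, 5 had a lower and 3 a higher mean in unloaded femur. Of all genes with a symbol, each read by its brightest tested probe alone, 39.6% had a lower one. The brighter Slfn3 probe was among the lower and the other Slfn3 probe among the higher. Limma called 0 of the 8 probes, where 0.00259% of all probes (1 of 38629) were called. Unadjusted p lay below 0.05 for 2 of them, Slfn4 and Slfn8, whose 95% intervals lay below 0; of all probes tested 16.1% (6225 of 38629) had such a p, and nothing is read from the members' count. For the other 6 the interval included 0, which does not show that they were alike in both groups: differences of up to -0.67 for Slfn1 and 0.56 for the second Slfn3 probe lie within the intervals. In bulk bone, fewer cells of a type and less RNA per cell cannot be told apart for any of these genes.

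**Figure D3:**
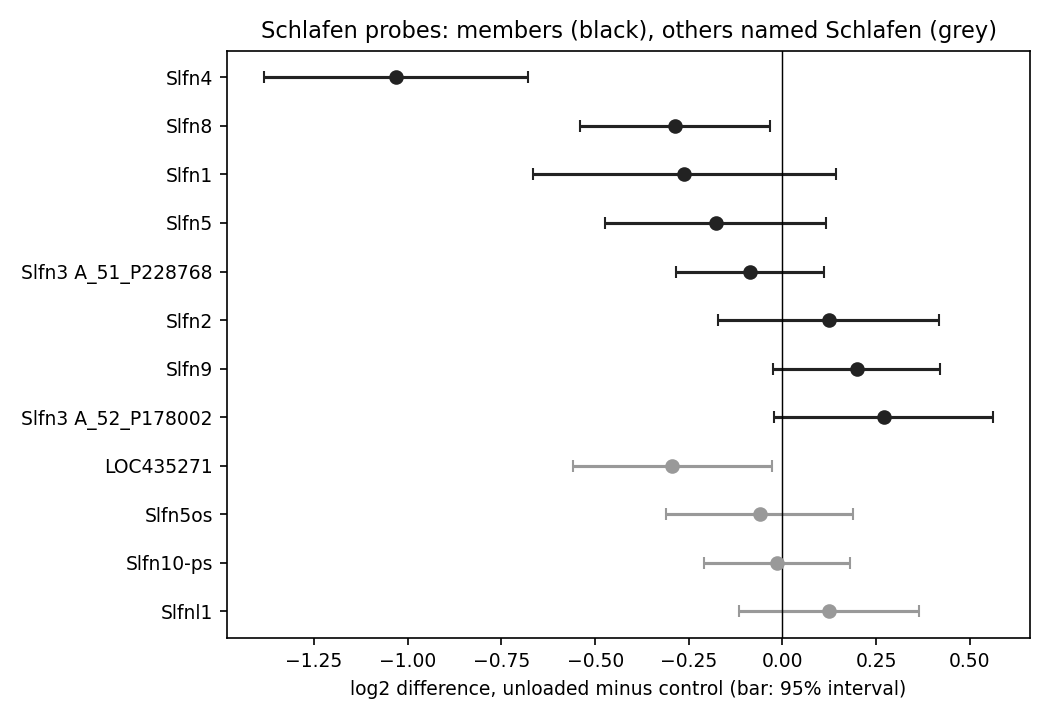
Log2 difference, unloaded minus control, with its 95% interval for the 8 member probes (black) and the 4 other probes named Schlafen (grey). The interval lies wholly below 0 for Slfn4 (-1.38 to -0.68), Slfn8 (-0.54 to -0.03) and LOC435271 (-0.56 to -0.03).

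A further 4 probes carry a Schlafen name without being members. LOC435271, a predicted gene that the array describes as similar to schlafen 3, read -0.24, -0.27, -0.03, -0.29 and -0.26 in controls 1 to 5 and -0.35, -0.33, -0.62, -0.34 and -0.93 in unloaded animals 1 to 5. All unloaded animals lay below all controls, with unloaded 5 the lowest, and the difference was -0.29 (SE 0.12, limma adjusted p = 0.287). It was -0.19 without unloaded 5 and -0.17 within slide 2. Its deviations went with those of Slfn4 at r = 0.82 (rho 0.70, exact permutation p = 0.00826, 0.273 adjusted over all 66 pairs of the 12 probes). Without the 2 animals farthest from the median of Slfn4, r was 0.73. Slfn10-ps, the pseudogene, lay between 0.10 and 0.32 in control and 0.06 and 0.32 in unloaded femur, a difference of -0.01 (SE 0.09). The antisense RNA Slfn5os, matched through its clone name, differed by -0.06 (SE 0.12) and Slfnl1, a Schlafen-like gene on chromosome 4, by 0.12 (SE 0.11). Slfnl1 was well above background on 4 of the 5 unloaded arrays, and its difference was 0.05 without control 2 and 0.03 to 0.06 under other scalings.

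Whether the members moved together from animal to animal was asked from the deviations of each animal from its group mean, which do not hold the difference between the groups. Among 21 pairs of members, with the brighter probe standing for Slfn3, 13 correlations were positive and 8 negative, with a median Pearson r of 0.14 over 10 animals. The closest pair was the short forms Slfn1 and Slfn2, at r = 0.80 (Spearman rho 0.76, exact permutation p = 0.00806, 0.169 adjusted over the 21 pairs). Without the 2 animals farthest from the median of Slfn1 it was 0.48. All such values of a pair leave out the 2 animals farthest from the median of the first gene named. This narrows the range of that gene. Slfn4 went most closely with Slfn5, at r = 0.76 (rho 0.64, exact permutation p = 0.0166, adjusted 0.174; 0.50 without 2 animals), followed by Slfn1 at 0.69 and Slfn8 at 0.65. Between Slfn4 and Slfn3, its neighbour on the chromosome, r was 9.1e-05 (rho 0.10, exact permutation p = 1.00). None of the 21 pairs passed after adjustment and 3 had an unadjusted p below 0.05. Each of these 3 shrank without 2 animals, which a narrower range of 1 gene can bring about by itself.

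As a measure of how common such values were, 1.41% of the 25981 other genes were as close to Slfn1 as Slfn2 was, and 3.11% were as close to Slfn4 as Slfn5 was. All points of a correlation share the array, its scaling and its slide. The lowest pair was Slfn1 with Slfn9, at r = -0.65 (rho -0.55, exact permutation p = 0.0609, adjusted 0.283; -0.48 without 2 animals).

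**Figure D4:**
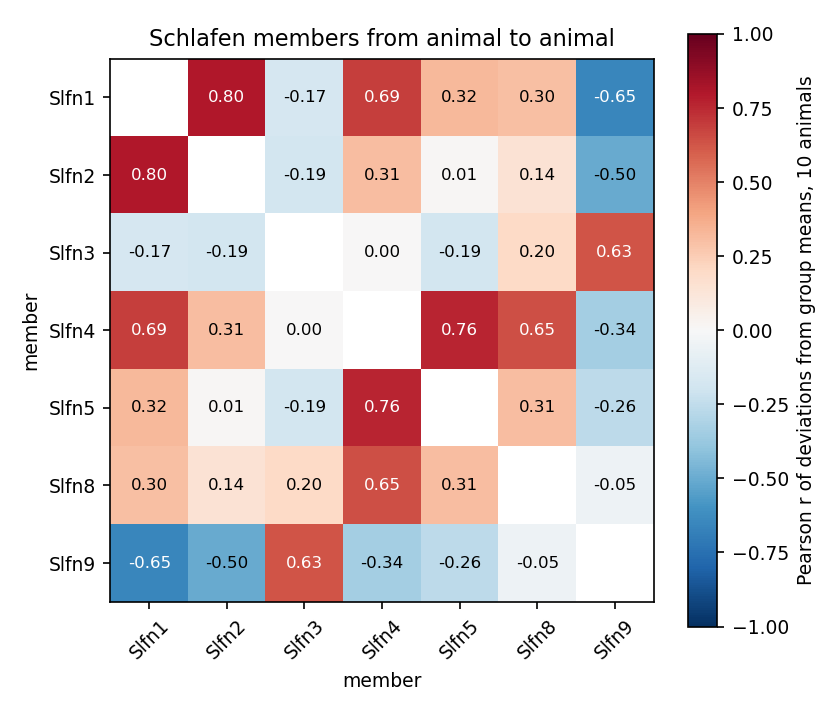
Pearson r between the deviations from the group means of the 7 Schlafen genes over 10 animals, on a colour scale from -1 (blue) to 1 (red). The highest value is that of Slfn1 and Slfn2 (0.80) and the lowest that of Slfn1 and Slfn9 (-0.65).

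By the same measure, the closest genes outside the family were sought among those with a current symbol, with clone and predicted names left out. Among these, Epb42 lay closest to Slfn4 (r = 0.97), with a difference of -0.30 (SE 0.12). The closest genes to Slfn2 were Stoml2 and Isg20 (both r = 0.97), for Slfn1 Timd4 and Dnajb2 (both 0.96), and for Slfn3 Cbr2 and Slc5a9 (both 0.96). For Slfn5 they were Dbx1 (0.99) and Klf11 (0.96), for Slfn8 Jchain (0.92) and Pfkfb1 (0.91), and for Slfn9 Hmcn1 and Fam83d (both 0.92). These are the highest values among the genes kept by that choice of names, out of 25981 other genes, each over 10 animals. No p is attached to them.

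Interferons act through cell surface receptors and the kinases bound to them, and the factors these activate switch on a shared set of defence genes to which many Schlafen genes belong. Of 36 interferon-induced genes listed, 35 had a tested probe, of which 14 lay above and 21 below 0. Their median was -0.10, against 0.05 over all 18955 genes with a symbol, of which 39.6% lay below 0. Limma called 0 of the 35, and 4 (11.4%) had an unadjusted p below 0.05, against 15.8% of all genes with a symbol (2989 of 18955). Trim25, a ubiquitin ligase of the antiviral RIG-I pathway, read 2.66, 2.78, 2.91, 2.70 and 2.70 in controls 1 to 5 and 2.51, 2.59, 2.15, 2.03 and 1.29 in unloaded animals 1 to 5. All unloaded animals lay below all controls and the difference was -0.63 (SE 0.20, limma adjusted p = 0.244).

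Parp14, an ADP-ribosyltransferase, had -0.30 (SE 0.10), with 2 of 3 probes on that side, and the interferon-induced Ifi27l2a -0.39 (SE 0.17). The median of the list moved to -0.01 without control 3, with 17 positive and 18 negative members. It was -0.18 without control 1, -0.17 without unloaded 2, and -0.12 to -0.07 without any other single array. With slide as a fixed block it was -0.15, and with arrays scaled to their median it was -0.20, each with 7 positive and 28 negative members. The median of all genes moved down with it, from 0.05 to -0.01 with the block and to -0.04 with median scaling. Of 14 genes of interferon signalling, 5 had a positive and 9 a negative difference (median -0.05, 0 called, 2 or 14.3% at an unadjusted p below 0.05, again near the 15.8% of all genes). Ifnar2, a chain of the type I interferon receptor, differed by -0.27 (SE 0.09, limma adjusted p = 0.252) with all unloaded animals below all controls. The receptor-bound kinases Jak1 and Jak2 had -0.32 (SE 0.13) and -0.20 (SE 0.12), and for Jak2 the probes were divided, 1 of 2 being negative. The mean of the interferon-induced genes had an r of 0.40 with Slfn4 (rho 0.44, exact permutation p = 0.298, 0.426 adjusted over the 10 lists compared). Without the 2 animals farthest from the median of Slfn4, unloaded 5 and control 5, it was 0.82. The same 2 animals were left out for every list. Control 3, the highest in Slfn4, stayed, so these values do not show what that animal contributed.

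Markers of the cells that femur RNA can hold were set beside Slfn4. Bone genes showed the labelled tissue: all 16 listed, from Col1a1 and Bglap to Sost and Ctsk, were well above background on all arrays, and their median difference was 0.07. Mepe, a matrix protein of osteocytes, differed by 0.55 (SE 0.17, limma adjusted p = 0.240) with all unloaded animals above all controls. Monocyte and macrophage markers, 14 of 15 with a tested probe, had 6 positive and 8 negative differences with a median of -0.09. Their summed level, in multiples of the 75th percentile, was 205 to 215 in control and 196 to 211 in unloaded femur. Such sums are of unlogged levels and follow their brightest genes. Here Lyz2, with a mean of 7.22 in control and 7.24 in unloaded femur, carried most of the sum. It does not show how the dimmer markers differed. Cx3cr1, a chemokine receptor of monocytes, had -0.97 (SE 0.26), Ccr2, a receptor that draws monocytes from marrow, -0.30 (SE 0.09) and Mpeg1, a macrophage pore-forming protein, -0.37 (SE 0.16), each with 1 of 2 probes on that side and adjusted p from 0.218 to 0.291. For the brighter probe of Ccr2 all unloaded animals lay below all controls.

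Neutrophil markers divided evenly, 7 to 7, with a median of 0.0025 and a summed level of 787 to 915 in control and 789 to 895 in unloaded femur. The brightest genes of that sum were S100a9 (mean 8.26 in control, 8.32 in unloaded femur) and Mpo (7.45 in both). The lowest unloaded sum, 789, was that of unloaded 3, which had no value for the bright marker Ltf, so it is too low. Csf3r, the receptor for the neutrophil growth factor, had -0.48 (SE 0.14) with all unloaded animals below all controls, while Stfa2, a cysteine protease inhibitor, had 0.42 (SE 0.15) and Cxcr2, a neutrophil chemokine receptor, -0.29 (SE 0.16), with 1 of 2 probes negative. T and NK cell markers had 15 positive and 3 negative differences (median 0.11), with the T cell coreceptor chain Cd8b1 at 0.51 (SE 0.16), the NK receptor Klrb1c at 0.33 (SE 0.11), each with 1 of 2 probes positive, and the receptor signalling chain Cd247 at 0.24 (SE 0.10). B cell markers had 3 positive and 11 negative (median -0.11), with Ebf1 at -0.35 (SE 0.12), Fcer2a at 0.26 (SE 0.10) and Rag1 at -0.38 (SE 0.17). Skeletal muscle genes had 1 positive and 11 negative (median -0.21), with Mb at -0.53 (SE 0.24), and endothelial genes 1 positive and 7 negative (median -0.10), with Sox18 at -0.46 (SE 0.14). Of all 18955 genes with a symbol, 11440 had a positive and 7515 a negative difference (median 0.05), so most genes lay above 0. Limma called 0 genes of these lists, and between 1 and 4 of each had an unadjusted p below 0.05. That is 6.25% (bone) to 28.6% (monocytes and macrophages) of a list, where 15.8% of all genes had such a p. Of the 18955 genes, 341 had all unloaded animals below all controls and 284 had them all above. Separation of a list gene is therefore given as a description.

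Because Epb42, a protein of the red cell membrane, lay closest to Slfn4 among the genes so kept, a list of 16 erythroid genes was added after those values were seen. All 16 were tested, 4 lying above and 12 below 0 (median -0.15, 0 called, 3 or 18.8% at an unadjusted p below 0.05, against 15.8% of all genes). Their summed level was 160 to 268 in control and 173 to 253 in unloaded femur. The lowest control sum, 160, was that of control 5, which had no value for Slc4a1, one of the brightest of these genes. That sum is therefore too low to be read as a level. The mean of the 15 measured on all arrays had an r of 0.81 with Slfn4 over the 10 deviations (rho 0.76; 0.87 without 2 animals), given with no p because the list was built from genes seen to be close. For monocyte and macrophage markers r was 0.71 (rho 0.65, exact permutation p = 0.0353, adjusted 0.128; 0.68 without 2 animals), and for neutrophil markers 0.55 (rho 0.65, exact permutation p = 0.133, adjusted 0.221; 0.59 without 2 animals). Values of like size came from lists of other cells: T and NK cells at -0.67 (rho -0.60, exact permutation p = 0.0508; -0.20 without 2 animals), endothelium at 0.67 (rho 0.60, exact permutation p = 0.0520; 0.19 without 2 animals) and skeletal muscle at 0.64 (rho 0.76, exact permutation p = 0.0641; 0.64 without 2 animals), each with an adjusted p of 0.128. Adjusted p-values of these list correlations were taken over all 10 lists, the erythroid list included. Including it made the printed adjusted p-values smaller than they would be without it. The part of any of these cell types in the Slfn4 difference was not tested.

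**Figure D5:**
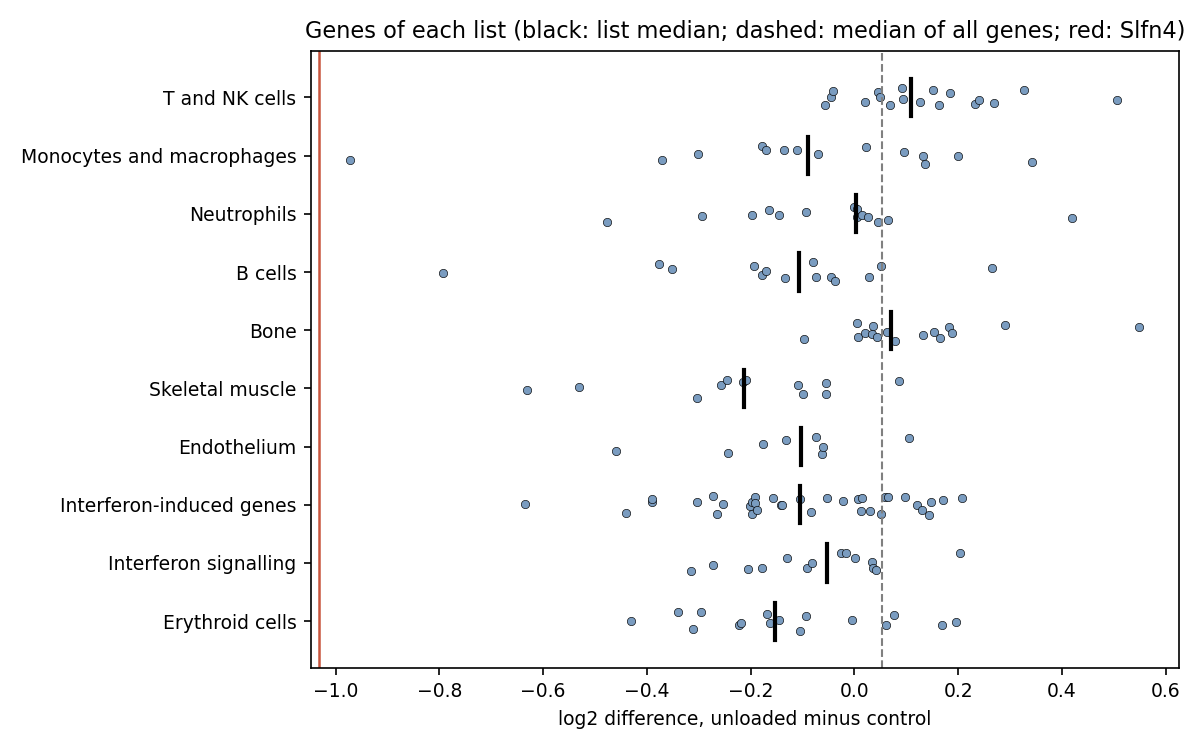
Log2 difference, unloaded minus control, of each gene (points) of the interferon and cell marker lists, with the list median as a black bar, the median of all 18955 genes as a dashed line (0.05) and Slfn4 as a red line (-1.03). No list median lies beyond -0.21, that of skeletal muscle, and the gene nearest to Slfn4 is Cx3cr1 at -0.97.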

How the data were processed

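Total RNA of 10 femurs, 1 array per animal, was hybridised to 1-colour Agilent arrays. Agilent Feature Extraction 9.1.3.1 gave the deposited values, per the file headers (protocol GE1-v5_91_0806, design 014868): a background-corrected intensity per spot, unscaled between arrays. The series matrix the authors deposited holds values within a ratio of 0.995 to 1.005 of that intensity. From 43379 gene spots, 97 outlier spots over all arrays were left out, spots of a probe were averaged as log2, and each array's 75th percentile was subtracted. A probe entered if either group had it well above background on 4 or more of its 5 arrays and each group had 3 or more values. These were fitted with limma 3.58.1 (R 4.3.3), two-sided, with Benjamini-Hochberg adjustment over all 38629 and a threshold of 0.05; the fit was tested on simulated data. Names came from RefSeq GRCm38.p6, by accession for 22951 of 41174 probes. The brightest tested probe stood for a gene. Pairs of members were compared by exact permutation of animals within groups, added after the data were seen.

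The members and lists were chosen with earlier results of these data known. Named beside the members are up to 3 genes of smallest p in each list, the bone genes of the tissue check, and the 2 genes closest to each member, of which 1 is not reported here. Labels give both groups the animal numbers 1 to 5, which are separate animals. Alternatives covered background correction, scaling, the filter, the series matrix, the variance model, the replicate number, slide and each array left out.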

Additional observations from a re-analysis of the deposited data

Results flagged for a closer look

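Each of 24 groups of 5 values, 12 Schlafen probes in 2 groups, was searched for an animal far from the others, and 1 was found, where chance gives about 1 in 20. LOC435271, the predicted gene described as similar to schlafen 3, read -0.0296 in control 3, while the nearest control read -0.24 and the lowest -0.29.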

How the results depend on the processing

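The number of Schlafen probes called was 0 under every alternative but a mean-dependent robust variance, where it was 1 (Slfn4). The number of all probes called, 1 as reported (Ddit4), was 3 with that variance, 3 with slide as a fixed block, and 0 to 2 without a single array: 0 without control 4, control 5 or unloaded 4, and 2 without control 2. With the replicate number as a block (replicate block), Slfn4 kept a difference of -1.03 (limma adjusted p = 0.155) and no Schlafen call changed; same-numbered animals had correlations of -0.14 to 0.18, so the numbers do not pair them. With slide as a fixed block, which slide 2 alone informs and where the values are the same, signs turned for Slfn2 (-0.17), the RefSeq probe of Slfn3 (0.026), Slfn5 (0.13), Slfn10-ps (0.0579), Slfn5os (0.0112) and Slfnl1 (-0.14), and Slfn8 shrank to -0.03; the cause was not tested. Slfn10-ps also turned with quantile normalization (0.0098), cyclic loess (0.0028) and between -0.0499 and 0.0191 without single arrays, and Slfn5os lay between -0.102 and 0.0295 in that way. Over the 22 alternatives Slfn4 lay between -1.13 and -0.54 with adjusted p from 0.0382 to 1.00. The median correlation between members lay between -0.0044 and 0.20 without single arrays, and 0 interferon-induced genes were called under every alternative run for that list. Signal over background limits Slfnl1, which was not well above it on every array.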
